A study of Homo sapiens with 2 samples.

Results

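The insulin and insulin-like growth factor (IGF) pathway was described here by 10 genes, taken by symbol from the count tables of A549 cells, a long-established line from a human lung adenocarcinoma. They are IGFBP1, IGFBP2, IGFBP3, IGFBP4 and IGFBP6, the receptors IGF1R, INSR and IGF2R, and the adaptors IRS1 and IRS2. All 10 were found, each on a single row, among 24462 symbols, and all 10 were among the 11771 symbols that averaged 30 counts or more and were compared. The study targeted ADGRF4, an adhesion G protein-coupled receptor, and profiled messenger RNA by QuantSeq sequencing of transcript 3′ ends. It holds 2 libraries, 1 from A549 cells given control siRNAs and 1 from A549 cells given ADGRF4 siRNAs, both grown in medium with serum. With 1 library per group no test was possible, so each difference is between these libraries and each range in parentheses is the 95% interval for counting error only.

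IGF1, IGF2 and insulin bind receptor tyrosine kinases at the cell surface. IGF1R and INSR are closely related kinases that can also pair with each other, while IGF2R has no kinase and carries IGF2 and lysosomal enzymes to the lysosome. The active kinases phosphorylate IRS1 and IRS2, which recruit PI3-kinase and so switch on AKT, mTOR complexes and the exclusion of FOXO factors from the nucleus. Secreted IGF binding proteins hold IGFs away from the receptors or deliver them, and proteases such as PAPP-A release the ligand. In lung cancer cells the pathway is known for survival and growth signalling, and IGFBP3 is also known for actions that do not need IGF.

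The libraries held 10396047 (control) and 9825320 (knockdown) counts. ADGRF4 itself had 3 and 1 counts, too few to check the silencing. All 6 epithelial markers on the list were detected, 2 of them at least 1.5-fold higher and 3 lower after ADGRF4 siRNA. The shares over all compared symbols were 21.1% higher and 22.3% lower. The summed level of the 6 markers, 7458 and 11169 CPM, was mostly the keratin gene KRT18 (5389 and 8505 CPM). The E-cadherin gene CDH1 had 1218 and 239 counts and was 4.34-fold lower. KRT18 and the keratin gene KRT8 overlap on opposite strands and have 67 and 50 pseudogenes named after them, so their values are uncertain. Among 6 blood cell markers, 4 were at 0 in both libraries and the sum was 4.75 and 3.43 CPM. The 7 alveolar type 2 markers summed to 20.3 and 32.9 CPM, of which ABCA3, a lipid transporter, gave 18.5 and 31.4 CPM, and the surfactant genes SFTPA1 and SFTPB were at 0 in both libraries.

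The sequences before the transcription start are given first for the lowest members, IGFBP3, IGF2R and IRS2, and for the highest, IGFBP6. They are the 250 bases upstream of the RefSeq start on GRCh38.p14, written 5′ to 3′ on the gene's strand. Such windows were found for 9 of the 10 genes (11 windows) and not for IGFBP1. Capitals mark matches on either strand to the 5 motifs searched, which are CAAAACAA (an insulin response sequence, the kind of site through which FOXO factors are known to act), the forkhead core GTAAACA, the E-box known by the letters CACGTG, the promoter element with the letters TATAAA, and its variant with the letters TATATA. The last 2 can overlap each other, and the E-box and the last of these read the same on both strands.
IGFBP3, chr7:45921273-45921522, minus strand: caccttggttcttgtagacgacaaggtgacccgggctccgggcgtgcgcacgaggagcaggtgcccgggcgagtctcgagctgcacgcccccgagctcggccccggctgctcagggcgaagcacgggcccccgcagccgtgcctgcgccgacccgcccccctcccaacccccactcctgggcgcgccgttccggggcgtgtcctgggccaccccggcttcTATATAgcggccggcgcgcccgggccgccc
IGF2R, chr6:159968832-159969081, plus strand: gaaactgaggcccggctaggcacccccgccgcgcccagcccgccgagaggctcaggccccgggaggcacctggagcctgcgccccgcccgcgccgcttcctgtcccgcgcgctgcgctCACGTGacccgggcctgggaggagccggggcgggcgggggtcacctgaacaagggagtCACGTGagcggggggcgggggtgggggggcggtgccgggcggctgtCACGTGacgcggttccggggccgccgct
IRS2, chr13:109786584-109786833, minus strand: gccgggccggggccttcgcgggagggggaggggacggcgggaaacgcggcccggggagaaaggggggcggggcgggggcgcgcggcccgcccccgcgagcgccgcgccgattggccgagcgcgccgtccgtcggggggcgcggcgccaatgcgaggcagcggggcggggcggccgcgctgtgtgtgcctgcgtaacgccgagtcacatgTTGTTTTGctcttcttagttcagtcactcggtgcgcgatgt
IGFBP6, chr12:53097417-53097666, plus strand: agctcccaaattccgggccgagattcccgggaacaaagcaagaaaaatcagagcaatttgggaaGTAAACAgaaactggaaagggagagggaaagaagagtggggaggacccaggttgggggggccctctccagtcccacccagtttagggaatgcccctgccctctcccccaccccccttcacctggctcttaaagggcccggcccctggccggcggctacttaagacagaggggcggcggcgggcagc

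The marked letters differ between these windows. IRS2 held the insulin response sequence on the opposite strand, from 41 to 34 bases before the start, and 1.46% of 35116 RefSeq windows of that length held it. IGF2R had an E-box at 3 places, beginning 132, 74 and 28 bases before the start, and 6.34% of all windows held at least 1. IGFBP6 had the forkhead core beginning 186 bases before the start (2.98% of all windows). IGFBP3 had TATATA 30 bases before the start (3.73% of all windows), and IGFBP4, whose window is not printed, had TATAAA 29 bases before it (10.7%). Each motif was in 1 of the 11 windows of these genes. The windows of IGF1R, INSR, IRS1 and IGFBP2 held none of these letters. The 250 bases were 76.0% G and C in IGFBP3, 79.2% in IGF2R, 76.4% in IRS2 and 61.2% in IGFBP6, against a median of 58% over all windows. These matches describe the sequence only, and no binding was measured.

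After ADGRF4 siRNA, 4 of the 10 genes were at least 1.5-fold lower, 1 was at least 1.5-fold higher and 5 lay between. IGFBP3, IGF2R, IRS2 and INSR were the lower genes and IGFBP6 the higher. The same limits were passed by 22.3% (lower) and 21.1% (higher) of the symbols compared, so a change of this size was common in the whole table. The 10 genes were chosen with earlier results of these data known, so setting these shares side by side is not a test. At 2-fold, 2 genes were lower (IGFBP3 and IGF2R) and 0 higher, against 10.4% and 7.84% of all compared symbols. The median log2 ratio of the 10 genes was -0.17, against -0.016 for all compared symbols. Log2 ratios here are of CPM with 1 CPM added, after scaling by edgeR's trimmed mean method (TMM), which understates differences of low genes.

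**Figure D1:**
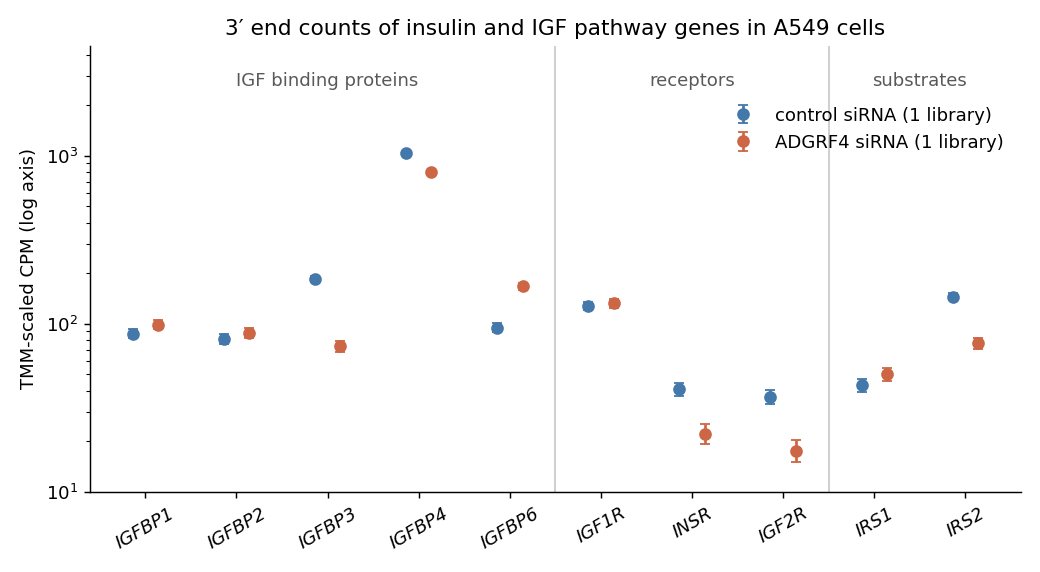
TMM-scaled CPM (log axis) of the 10 genes in the control siRNA library (blue) and the ADGRF4 siRNA library (orange). Points are single libraries and bars are exact Poisson 95% intervals. IGFBP4 lies highest in both libraries, and the pairs of points stand well apart for IGFBP3, IGFBP6, INSR, IGF2R and IRS2.

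Among the 5 secreted binding proteins of the set, IGFBP3, the main IGF carrier of serum, differed most. IGFBP3 had 2025 counts (185 CPM) with control siRNAs and 684 counts (73.3 CPM) with ADGRF4 siRNAs, which is 2.52-fold lower (2.31 to 2.76). Its log2 ratio of -1.32 was at percentile 5.67 of all compared symbols. IGFBP4, which mainly inhibits IGF action and is cut by PAPP-A, had 11396 counts (1041 CPM) and 7460 counts (799 CPM), 1.30-fold lower (1.26 to 1.34). The interval for IGFBP4 is narrow because of its high count, but the difference was below the 1.5-fold limit.

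IGFBP6, which binds IGF2 in preference to IGF1, went the other way. It had 1040 counts (95.01 CPM) in the control library and 1557 counts (167 CPM) in the knockdown library, 1.76-fold higher (1.62 to 1.90). IGFBP1, an insulin-repressed gene of liver known as a FOXO target, had 956 and 924 counts (87.3 and 99.0 CPM), a ratio of 1.13 (1.03 to 1.24). IGFBP2, the binding protein most linked to fetal and tumour tissue, had 890 and 826 counts (81.3 and 88.5 CPM), a ratio of 1.09 (0.989 to 1.20). IGFBP1 and IGFBP2 were thus within 1.5-fold in these libraries, and the IGFBP2 interval includes a ratio of 1.

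The makeup of the binding protein counts shifted between the libraries. This view does not depend on how the libraries are scaled. It is not corrected for the base composition of 3′ ends, with which ratios moved across the whole table. IGFBP6 had 62.3% G and C in its last 300 bases and a log2 ratio of 0.81. Genes of similar content had a median of 0.84. The part of base composition in the shift was not tested. In 3′ end sequencing a transcript gives about the same number of reads whatever its length, so counts were set side by side without division by length. IGFBP4 took 69.9% (exact binomial interval 69.2% to 70.6%) of the counts of the 5 genes in the control library and 65.1% (64.3% to 66.0%) in the knockdown library. IGFBP3 went from 12.4% (11.9% to 12.9%) to 5.97% (5.55% to 6.42%). IGFBP6 went from 6.38% (6.01% to 6.76%) to 13.6% (13.0% to 14.2%). IGFBP3 was thus second in the control library and last in the knockdown library, where IGFBP6 came second. The summed level of the 5 genes was 1490 CPM in control cells and 1227 CPM after ADGRF4 siRNA, 1.21-fold lower (1.19 to 1.24). Without IGFBP4 the sums were 449 and 428 CPM.

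IGFBP1 and IGFBP3 are next to each other on chromosome 7 in the RefSeq annotation, with no protein-coding gene between them. In the control library there were 0.472 IGFBP1 counts for each IGFBP3 count, and in the knockdown library 1.35, a change of 2.86-fold (2.52 to 3.25). The 3′ ends of both transcripts are poor in G and C, 35.0% for IGFBP1 and 32.3% for IGFBP3 over the last 300 bases. IGFBP2 and IGFBP5 are likewise neighbours, on chromosome 2. IGFBP5 was almost unread, with 2 and 11 counts, a ratio of 6.45 (1.41 to 59.9).

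The receptors differed from each other. IGF1R, the main receptor for IGF1, had 1399 counts (128 CPM) in the control library and 1234 counts (132 CPM) in the knockdown library, a ratio of 1.03 (0.958 to 1.12). INSR, the insulin receptor, had 446 and 207 counts (40.7 and 22.2 CPM), 1.84-fold lower (1.55 to 2.18). IGF2R had 401 and 164 counts (36.6 and 17.6 CPM), 2.08-fold lower (1.73 to 2.52). The IGF1R interval included 1, whereas those of INSR and IGF2R lay wholly beyond 1.5-fold lower.

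The balance of receptor counts moved with these differences. IGF1R counts were 3.14 times those of INSR in the control library and 5.96 times in the knockdown library, a change of 1.90-fold (1.58 to 2.29). Against IGF2R the change was 2.16-fold (1.76 to 2.64). The ratio of INSR to IGF2R changed by 1.13-fold (0.881 to 1.46), an interval that includes no change. These are ratios of counts within a library, chosen with the results known, and 8 such pairs were computed. IGF1R made up 62.3% of the counts of the 3 receptors in the control library and 76.9% in the knockdown library.

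Of the insulin receptor substrates, IRS2 was lower and IRS1 was not. IRS2 had 1590 counts (145 CPM) in control cells and 713 counts (76.4 CPM) after ADGRF4 siRNA, 1.90-fold lower (1.74 to 2.08). IRS1 had 470 and 466 counts (42.9 and 49.9 CPM), a ratio of 1.16 (1.02 to 1.32). IRS1 counts were 0.296 of those of IRS2 in control cells and 0.654 after ADGRF4 siRNA, a change of 2.21-fold (1.89 to 2.59). IRS2 had the most counts of the pair in both libraries, with 77.2% (75.3% to 79.0%) of their sum in control cells and 60.5% (57.6% to 63.3%) after ADGRF4 siRNA. The ratio of INSR to IRS2 counts was 0.281 and 0.290, and that of IGF2R to IRS2 was 0.252 and 0.230. The changes of these ratios, 1.03 (0.854 to 1.25) and 0.912 (0.740 to 1.12), have intervals that include 1. No change of INSR, IGF2R and IRS2 against each other was thus detectable at this depth. These pairs too were chosen with the results known, and their values restate the ratios of these genes. Exons of IRS2 are overlapped on the other strand by AL162497.1, and without strand-aware counting the reads of that pair would be mixed. The other 9 genes have no annotated overlap of exons, and none of the 10 has a processed pseudogene named after it in GENCODE 29.

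**Figure D2:**
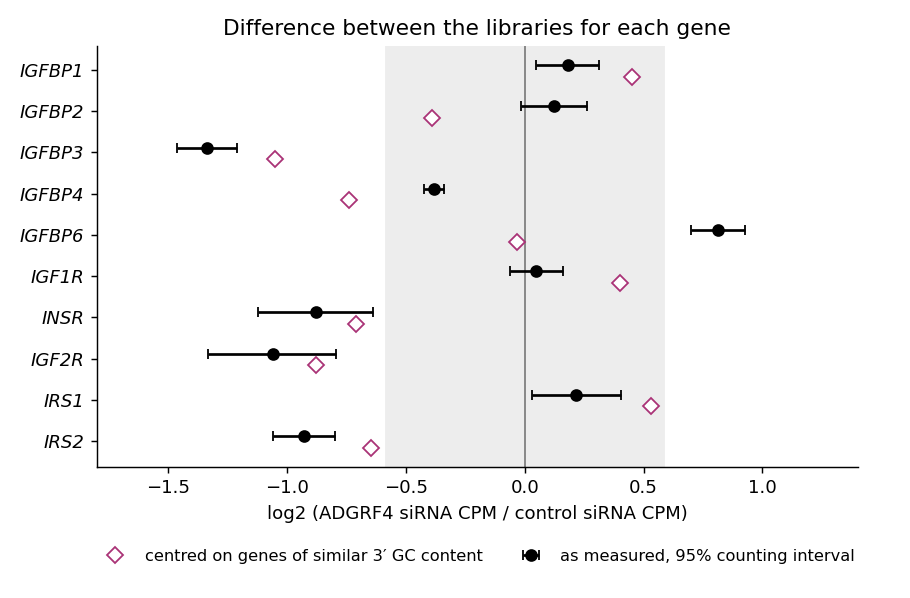
Log2 ratio of ADGRF4 siRNA over control siRNA CPM for the 10 genes. Black points with 95% counting intervals are as measured without a pseudocount, open diamonds are ratios with 1 CPM added and centred on genes of similar 3′ GC content, and the grey band is within 1.5-fold. IGFBP3, IGF2R, IRS2 and INSR lie left of the band by both measures, IGFBP4 only after centring, and IGFBP6 lies right of it only before centring.

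Base composition moved with the ratio across the whole table. Compared symbols were put into 10 bins by the share of G and C at their 3′ ends. The bin poorest in GC (median 27.0%) had a median log2 ratio of -0.35, and the richest (median 61.0%) had 0.78. The 10 genes span most of that range, from 26.3% in IGF1R to 62.3% in IGFBP6. For centring, a finer split into 20 bins was used and the median of a gene's bin was subtracted. IGFBP6 had a log2 ratio of 0.81, close to the median of 0.84 in its bin of that split, and its centred value was -0.033. IGFBP4 (51.3% GC) had a log2 ratio of -0.38 where its bin had a median of 0.36, and its centred value was -0.74. IGFBP2 (55.0% GC) went from 0.12 to -0.39.

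The genes with AT-rich 3′ ends gave other values. IGFBP3 remained lower at -1.05 after centring, at percentile 6.30 of its bin. INSR and IGF2R both have 39.7% GC and had centred values of -0.71 and -0.88. IRS2 (34.7%) had a centred value of -0.65. IRS1 (29.3%), IGFBP1 (35.0%) and IGF1R (26.3%) had centred values of 0.53, 0.45 and 0.40, all within 1.5-fold. IGF1R and IRS1 have less GC at their 3′ ends than INSR, IGF2R and IRS2 and had higher ratios. IGFBP6, the richest in GC of the 10, had the highest ratio. These genes were set side by side with their values known. After centring, 5 of the 10 genes were at least 1.5-fold lower and 0 higher, and their median was -0.52. Over the 11533 symbols with a GC value the shares were 19.1% and 15.3%. This too is not a test, as the 10 genes were chosen with earlier results known. The part of base composition in these differences was not tested.

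**Figure D3:**
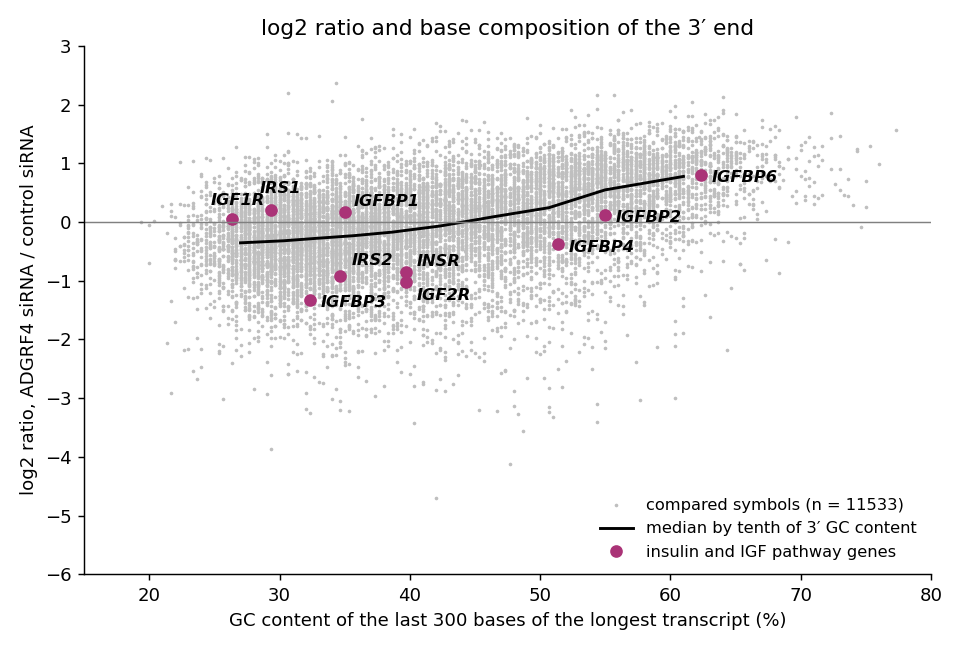
Log2 ratio (vertical axis) against the percentage of G and C (horizontal axis) in the last 300 bases of each symbol's longest GENCODE 29 transcript. Grey points are 11533 compared symbols, the line joins the medians of 10 GC bins, and the 10 genes are named. IGFBP6 lies near the line, IGFBP3, IRS2, INSR, IGF2R, IGFBP4 and IGFBP2 lie below it, and IGF1R, IRS1 and IGFBP1 lie above it.

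Transcripts for the ligands were scarce. INS, the acid-labile subunit gene IGFALS, the insulin receptor-related gene INSRR and IRS4 had 0 counts in both libraries, which allows up to 0.274 CPM in control cells and 0.321 CPM after ADGRF4 siRNA, taking 3 counts as the limit that a count of 0 allows. IGF1 had 18 and 29 counts, a ratio of 1.89 (1.01 to 3.61), and IGF2 had 13 and 9 counts, a ratio of 0.812 (0.306 to 2.05). These levels leave any difference in ligand transcripts poorly measured at this depth. IGFBP7, a low-affinity relative of the binding proteins, was better covered, with 389 counts (35.5 CPM) in control cells and 59 counts (6.32 CPM) after ADGRF4 siRNA. It was 5.62-fold lower (4.27 to 7.52) and lay at percentile 0.680 of all compared symbols. Exons of IGFBP7 are overlapped on the other strand by POLR2B and IGFBP7-AS1.

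Genes for IGFBP proteases and their inhibitors included none that was 1.5-fold lower. Of 7 compared, 3 (42.9%) passed the limit on the higher side and 4 lay between, with a median log2 ratio of 0.47. For this list and those that follow, the shares over all compared symbols are 21.1% higher and 22.3% lower, or 15.3% and 19.1% after GC centring. HTRA1, a secreted serine protease, had 369 and 559 counts, 1.78-fold higher (1.56 to 2.03). CTSD, the lysosomal protease cathepsin D, had 3736 and 5524 counts, 1.73-fold higher (1.66 to 1.81), with a 3′ GC content of 63.0% and a centred log2 ratio of -0.046. The metalloproteases ADAM12 and ADAM9 had ratios of 1.63 (1.17 to 2.29) and 1.39 (1.27 to 1.52). PAPPA, whose product cuts IGFBP4, had 3324 and 2785 counts, a ratio of 0.983 (0.934 to 1.03).

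At the receptors, most adaptors and inhibitors were within 1.5-fold. Of 20 compared, 4 (20%) were lower, 1 (5%) higher and 15 between (median log2 ratio 0.041), and after GC centring 3 were lower and 3 higher. SOCS3, an inhibitor of cytokine receptors that also acts on the insulin receptor, had 190 control counts and 9 after ADGRF4 siRNA, 18.0-fold lower (9.28 to 40.0). PTPRF, a receptor phosphatase known to act on the insulin receptor, had 1657 and 414 counts, 3.41-fold lower (3.06 to 3.81). RACK1, a scaffold that binds IGF1R and the ribosome, was 2.03-fold lower (1.98 to 2.09). GIGYF1, a partner of the adaptor GRB10, was 2.32-fold higher (2.07 to 2.60), with a 3′ GC content of 62.0% and a centred log2 ratio of 0.36.

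Of 20 compared PI3-kinase and AKT genes, 8 (40%) passed the 1.5-fold limit on the higher side, 3 (15%) on the lower side and 9 on neither, with a median log2 ratio of 0.28. Centred on 3′ GC content, 5 were higher and 2 lower. AKT1 had 386 and 71 counts, 4.63-fold lower (3.59 to 6.06), whereas AKT2 had 6179 and 12238 counts, 2.32-fold higher (2.25 to 2.40). INPPL1, which encodes the lipid phosphatase SHIP2, was 2.68-fold higher (2.50 to 2.87), and PIK3R3, a regulatory subunit, was 2.69-fold higher (1.84 to 3.98) from 41 and 94 counts. PHLPP2, an AKT phosphatase, went from 92 to 17 counts, 4.61-fold lower (2.73 to 8.26). AKT1 and AKT2, which encode related kinases, were thus on opposite sides, with 3′ GC contents of 53.3% and 51.7%.

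Further down, the TSC and mTOR genes were split, with 6 (35.3%) higher, 5 (29.4%) lower and 6 between among 17 (median log2 ratio -0.14). After GC centring 2 were higher and 3 lower. RPS6KB2, an S6 kinase, was 2.64-fold higher (2.35 to 2.97), TSC2, an mTOR inhibitor, 2.55-fold higher (2.24 to 2.91), and RPTOR, the mTORC1 scaffold, 2.61-fold higher (2.02 to 3.39). TBC1D7, the third subunit of the TSC complex, was 2.84-fold lower (2.07 to 3.95). The 3′ ends of the 3 higher genes had between 54.7% and 66.0% GC, against 35.7% in TBC1D7. Among 9 AKT effectors in glucose handling, 2 (22.2%) were higher, 1 (11.1%) lower and 6 between. GSK3A, a glycogen synthase kinase, was 2.44-fold higher (2.16 to 2.76) and PFKFB2, a regulator of glycolysis, had a ratio of 1.68 (1.36 to 2.09). PFKFB3, of the same family, was 2.06-fold lower (1.90 to 2.23), and TBC1D4, which controls glucose transporter traffic, had a ratio of 1.22 (0.948 to 1.57).

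FOXO factors and their targets showed 3 (25%) lower, 0 higher and 9 between among 12 compared (median log2 ratio -0.047), and after GC centring 3 were lower and 1 higher. BCL2L11, which encodes the cell death protein BIM, had 106 and 33 counts, 2.74-fold lower (1.84 to 4.18). CDKN1B, a cell cycle inhibitor, was 1.95-fold lower (1.58 to 2.40) and SESN3, a sestrin, 1.71-fold lower (1.13 to 2.62). Among the factors themselves, FOXO4 had a ratio of 1.39 (0.9997 to 1.94), FOXO1 of 1.19 (0.972 to 1.46) and FOXO3 of 1.08 (0.960 to 1.22). Of the 10 insulin and IGF genes, the known FOXO targets IGFBP1 and IRS2 had ratios of 1.13 and 0.526, respectively. IGF2BP2, which binds IGF2 messenger RNA, was 1.89-fold higher (1.70 to 2.09), while IGF2BP1 and IGF2BP3 were within 1.5-fold, with ratios of 0.768 (0.708 to 0.832) and 1.12 (0.970 to 1.29). Several of the genes named around the pathway share exon bases with a gene on the other strand, so their values are uncertain if strand was not used in counting. These include AKT1 (AL583722.2), PHLPP2 (MARVELD3), INPPL1 (PHOX2A), TSC2 (NTHL1 and PKD1), TBC1D7 (PHACTR1), PFKFB2 (YOD1), BCL2L11 (MIR4435-2HG), SESN3 (AP000787.1) and the antisense partners of PAPPA and RPS6KB2. HTRA1, CTSD, RACK1, RPTOR, IGF2BP1 and IGF2BP3 also have such an overlap.

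**Figure D4:**
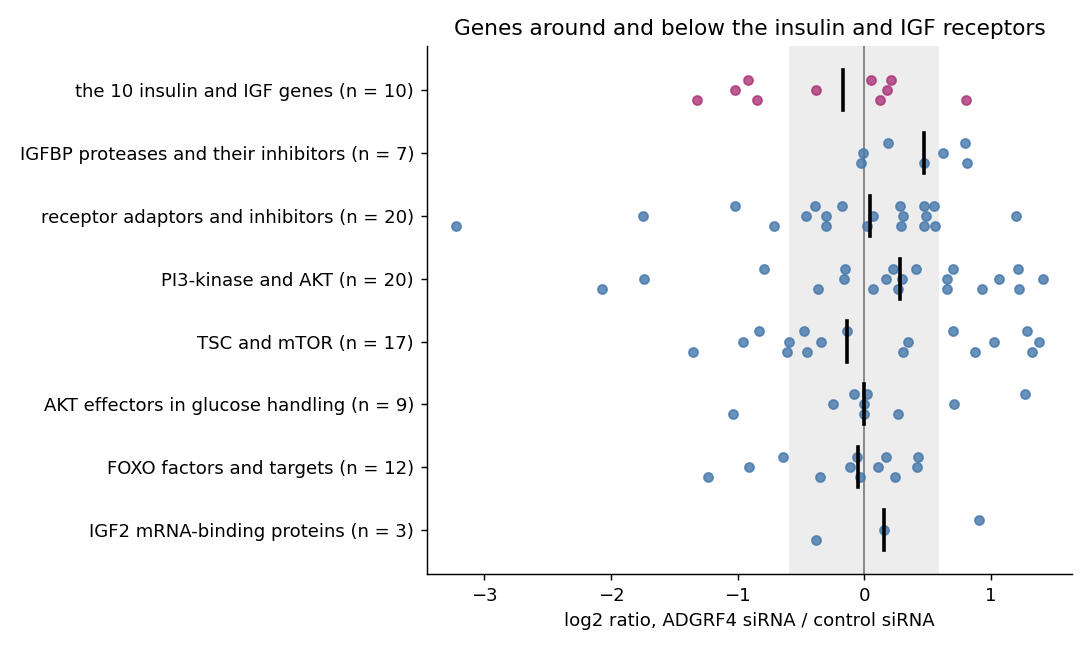
Log2 ratio of ADGRF4 siRNA over control siRNA for the 10 genes (purple) and for the compared genes of 7 lists around them (blue). Each point is a gene, black bars are medians and the grey band is within 1.5-fold. SOCS3 lies farthest left at -3.22, and the medians of the lists lie between -0.14 and 0.47.

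Over all 89 compared genes of the lists around the pathway, 21 passed the limit on the higher side, 17 on the lower side and 51 on neither, with a median log2 ratio of 0.11. That is 23.6% higher and 19.1% lower, beside 21.1% and 22.3% of all compared symbols. Scaling by total counts gave 15 higher and 19 lower. It also moved the median log2 ratio of all compared symbols from -0.016 to -0.16, and the shares over all symbols under it were not computed. A further 20 listed genes did not reach the count limit, and 7 of these had no more than 3 counts in either library.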

How the data were processed

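RNA extracted with Trizol was made into Lexogen QuantSeq libraries, per the labels' protocols. The files deposited by the authors hold raw whole-number counts, 1 value per symbol row. Bowtie2, edgeR and hg19 are named in the submitters' processing notes. Not given in the sources used here are their roles, the annotation, the strand setting and the handling of multi-mapped reads. Rows of a repeated symbol (286 symbols) were summed. Libraries were scaled by TMM in edgeR 4.0.16 (R 4.3.3), with DESeq2 1.42.0 size factors as an alternative. Ratios carry exact Clopper-Pearson 95% intervals, and changes of a ratio between 2 genes carry conditional intervals (scipy 1.17.1). These cover counting error only and take each read as an independent molecule. Reads without molecular identifiers need not be independent, so the intervals may be too narrow. Comparison was limited to symbols averaging 30 counts or more, and calls rest on size alone (1.5-fold and 2-fold). The members and lists were chosen with earlier results of these data known. Named genes are all 10 members, ADGRF4 and up to 4 compared genes per list with the largest absolute log2 ratio. AKT2, PAPPA, FOXO1, FOXO3, the ligand, binding protein and receptor genes under the count limit (INS, IGF1, IGF2, IGFALS, IGFBP5, INSRR, IRS4), the tissue markers and the related genes named in the closing section were added after their values were seen. Older symbols were matched (RACK1 is GNB2L1 in the files). GC content was taken from the last 300 bases of the longest GENCODE 29 transcript, found for 98.0% of compared symbols, and log2 ratios were centred on the median of 20 bins; the 3′ end used in these cells was not measured. Promoter windows are from RefSeq on GRCh38.p14, matched by symbol. The ratio, interval and centring steps were tested on simulated Poisson counts with set changes and a linear GC trend. Such counts hold no duplicate reads and no spread between cultures.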

Additional observations from a re-analysis of the deposited data

How the results depend on the processing

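The 10 genes were recomputed under 11 alternatives of scaling, pseudocount, count limit, repeated rows, fold limit and base composition. The count limits, the fold limit and the handling of repeated rows could not alter a gene's ratio, as each gene was on a single row. Under the other settings IGFBP3, INSR, IGF2R and IRS2 were below control. Their log2 ratios were -1.47 to -1.05, -0.99 to -0.71, -1.16 to -0.88 and -1.07 to -0.65, respectively. IGFBP6 turned from 0.81 to -0.033 with centring on 3′ GC content, where 0 of the 10 genes were at least 1.5-fold higher and their median was -0.52. Total-count scaling moved the median of all compared symbols from -0.016 to -0.16. It gave a median of -0.31 for the 10 genes and turned IGF1R to -0.10 and IGFBP2 to -0.026, both within 1.5-fold. At a limit of 2-fold, 2 of the 10 genes were lower and 0 higher. The 89 other pathway genes compared gave 10 higher and 9 lower. Over all compared symbols, 7.84% were higher and 10.4% lower at that limit. The smaller counts follow from the stricter limit. The cause of the other shifts was not tested. No paired analysis was possible because each group has a single library. With 1 library per group nothing shows how far replicate cultures would differ. Low depth limits what can be said of the ligands, IGF1 and IGF2 having under 30 counts in each library.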

Other observations

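Some related genes below the receptors differed in the size or direction of their ratio. The 5 pairs given here were picked for this after their values were seen, so they do not show how common it is, and FOXO1, FOXO3 and FOXO4 lay on the same side, at 1.19, 1.08 and 1.39. TSC2 was 2.55-fold higher after ADGRF4 siRNA, while TSC1, its partner in the TSC complex, had 255 and 154 counts, 1.41-fold lower (1.15 to 1.74). RPS6KB2 was 2.64-fold higher, and RPS6KB1, the other S6 kinase gene, had 763 and 511 counts, 1.27-fold lower (1.14 to 1.43). GSK3A was 2.44-fold higher, and GSK3B had 351 and 304 counts, a ratio of 1.02 (0.868 to 1.19). EIF4EBP1, a repressor of translation controlled by mTOR, was 2.07-fold higher (1.81 to 2.37), whereas its relative EIF4EBP2 was 1.81-fold lower (1.56 to 2.11). RPTOR of mTORC1 was 2.61-fold higher and RICTOR of mTORC2 was 2.003-fold lower (1.64 to 2.45). In these 5 pairs the higher gene had the 3′ end richer in G and C, with 55.3% against 35.0% for TSC2 and TSC1, 66.0% against 32.3% for the S6 kinases and 52.7% against 38.0% for GSK3A and GSK3B. EIF4EBP1 and EIF4EBP2 had 60.0% and 42.0%, and RPTOR and RICTOR 54.7% and 27.7%. Not all related genes did so. AKT1 (53.3%) was 4.63-fold lower and AKT2 (51.7%) 2.32-fold higher. IGF2BP1 (49.7%) had a ratio of 0.768 and IGF2BP2 (34.0%) a ratio of 1.89. Centred on genes of like 3′ GC content, the log2 ratios were 0.75 and -0.20 for TSC2 and TSC1, 0.77 and -0.60 for RPTOR and RICTOR, and 0.91 and 0.21 for GSK3A and GSK3B. They were 0.54 and -0.069 for RPS6KB2 and RPS6KB1 and 0.31 and -0.74 for EIF4EBP1 and EIF4EBP2, so RPS6KB2 and EIF4EBP1 came within 1.5-fold.

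PI3-kinase catalytic subunits also differed. PIK3CD had 885 and 1441 counts, 1.91-fold higher (1.76 to 2.08), and PIK3CB had 192 and 125 counts, 1.31-fold lower (1.04 to 1.65). Their 3′ GC contents were 42.7% and 31.3%, and their centred log2 ratios 0.96 and -0.042. PIK3C2A and PIK3C2B had ratios of 1.05 (0.914 to 1.21) and 0.880 (0.600 to 1.28), with intervals that include 1. PIK3CA had 9 and 2 counts, under the limit for comparison. Exons of PIK3CD are overlapped on the other strand by CLSTN1, those of RICTOR by OSMR and those of TSC1 by GFI1B. EIF4EBP1, EIF4EBP2 and PIK3CD have pseudogenes named after them (1, 3 and 1), and their values are uncertain for that reason.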
